A study of Mus musculus with 18 samples.

Results

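The comparison described here asked what CA-NFATc3 added to mouse embryonic stem cells that also received Foxd3. It set the 3 arrays labelled Foxd3+CA-NFATc3 against the 3 arrays labelled Foxd3, which are 6 of the 18 arrays of the series, across all genes with a usable signal. The cells were CGR8, an established feeder-independent mouse embryonic stem cell line, grown with serum and LIF, the cytokine that holds such cells in self-renewal, and plasmids were brought in by lipid transfection. The Foxd3 group received a Foxd3 plasmid, and the Foxd3+CA-NFATc3 group received Foxd3 and CA-NFATc3 together. By the usual meaning of its name, CA-NFATc3 is a constitutively active form of the transcription factor NFATc3. A second pair of groups from the same experiment, 3 arrays labelled vector and 3 labelled CA-NFATc3, gave the difference made by CA-NFATc3 without Foxd3. Each group held 3 samples labelled biological replicates of 1 cell line, so p-values measure the spread between such cultures. The sources used here do not give how many cells took up plasmid, how long after transfection they were collected or what the plasmid inserts contain.

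NFAT proteins wait in the cytoplasm in a phosphorylated form. A rise in calcium activates the phosphatase calcineurin, which removes the phosphates, and NFAT then enters the nucleus and binds DNA, often beside AP-1 factors. Foxd3 is a forkhead transcription factor of pluripotent cells and of the early neural crest, where it is known mostly as a repressor of differentiation genes.

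Neither plasmid gene passed the test between the 2 groups compared. The only Foxd3 probe set read 232, 244 and 236 in the 3 arrays labelled Foxd3 and 277, 210 and 214 in the 3 labelled Foxd3+CA-NFATc3, in MAS5 signal units scaled by the authors. The vector arrays read 507, 419 and 404, above every array of both groups labelled Foxd3. This goes against the label as a measure of added Foxd3, and the names of these groups are used below as labels. Nfatc3 read 1740, 1734 and 1696 in the Foxd3-labelled arrays and 1849, 1795 and 1806 with CA-NFATc3 (log2 difference 0.07 ± 0.06 SE, adjusted p = 0.868 by limma). The 2 groups did not overlap for Nfatc3, and its other probe set had means of 245 and 297, also higher with CA-NFATc3 added and also without a call. Where these probe sets lie relative to the plasmid inserts was not checked, so a plasmid transcript that lacks the probed stretch would not be measured.

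The embryonic stem cell markers were present in both groups. Pou5f1, which encodes Oct4, had a mean signal of 10467 ± 550 (SD, n = 3) in the Foxd3 group and 9855 ± 612 in the Foxd3+CA-NFATc3 group. The summed signal of 10 such markers ran from 100330 to 104960 and from 94332 to 104390, and 0 of the 10 passed the test. Summed fibroblast markers ran from 404 to 473 in the Foxd3 group and from 834 to 920 with CA-NFATc3 added, with 6 of 8 means higher and 2 of 4 tested markers passing the test. Of the fibroblast markers, Col1a1, Dcn, Lum and Postn were below 65.8, the median of all deposited values, in all 6 arrays. Among these the groups overlapped for Col1a1, Lum and Postn, while every Foxd3+CA-NFATc3 array was above every Foxd3 array for Dcn. Trophectoderm markers summed to 265 to 370 and 322 to 376, endoderm markers to 153 to 205 and 197 to 206, and the measured blood markers stayed below 65.8. The part of these markers in the results was not tested, and in bulk RNA fewer cells of a type and less RNA per cell cannot be told apart. Technical measures lay close together: the median signal was 57.8 ± 2.91 and 62.8 ± 3.95, and the actin 3′ to 5′ ratio was 2.27 ± 0.0828 and 2.31 ± 0.0944 (exact two-sided permutation p = 0.2 and 0.5, where 0.1 is the smallest p that 3 against 3 arrays allow).

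In the main fit, which does not pair arrays by replicate number, adding CA-NFATc3 to Foxd3 raised a small set of genes. Of 11609 genes tested, 38 differed at an adjusted p under 0.05 (0.327%). Of these, 37 were higher (0.319%) and 1, Tcf7l1, was lower (0.00861%). In signal plus 32, 24 of the 37 rose at least 2-fold. These 24 include genes whose lower bound, described below, is under 2-fold, such as Gem at 1.18-fold. In all 38 the 2 groups of arrays did not overlap. Over all tested genes, 7.41% lay wholly above and 3.91% wholly below the Foxd3 arrays, and the median log2 difference was 0.01. Without adjustment, 807 genes had p under 0.05, of which 597 were higher and 210 lower. A fit that blocks on the replicate number called 96 genes, 88 higher and 8 lower, and they included all 38. Leaving out 1 array brought the count down to 23 without Foxd3 replicate 1, 22 without Foxd3 replicate 2, and 25 and 23 without Foxd3+CA-NFATc3 replicates 2 and 3. Differences are given as log2 of signal plus 32, which understates the change of dim genes. For a called gene with a mean below 65.8 in the dimmer group only, a lower bound is given: the ratio of the groups' geometric mean signals with dim values raised to 65.8.

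The plot of signals by array shows 12 of the genes described below in all 4 groups.

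**Figure D1:**
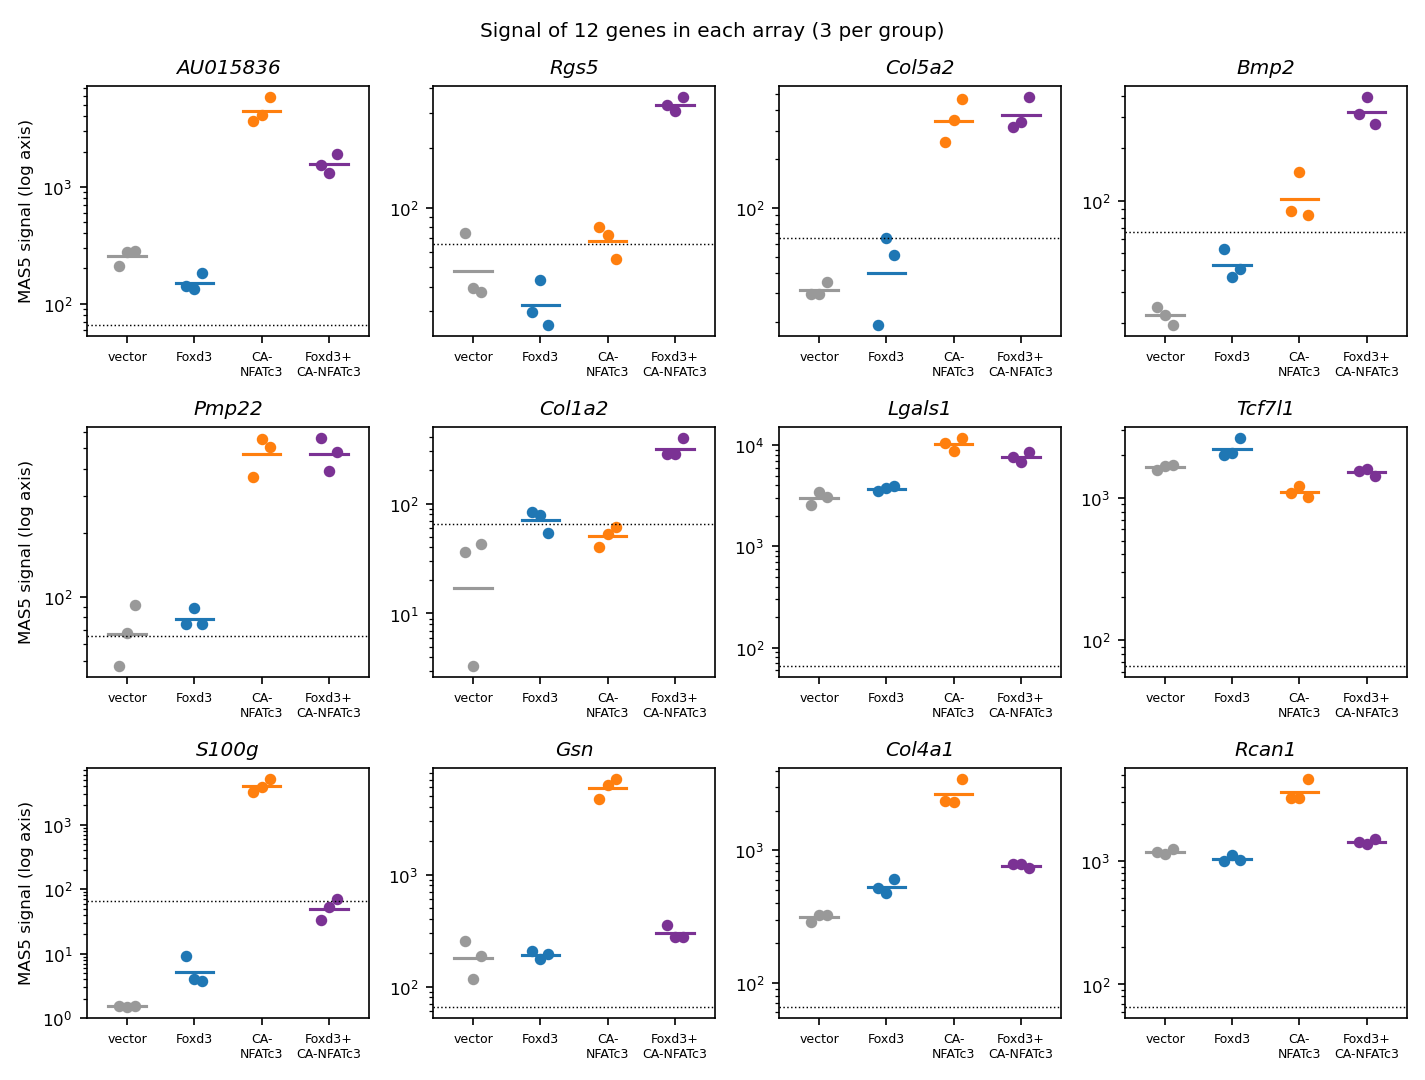
MAS5 signal (log axis) of 12 genes in each of the 12 arrays. Points are arrays, short bars are geometric means of 3 arrays, and the dotted line is the median of all deposited values (65.8). AU015836, Rgs5, Col5a2, Bmp2, Pmp22, Col1a2 and Lgals1 sit higher in every Foxd3+CA-NFATc3 array than in every Foxd3 array, and Tcf7l1 lower. S100g, Gsn, Col4a1 and Rcan1 reach far higher signals in the CA-NFATc3 arrays than in the Foxd3+CA-NFATc3 arrays.

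The largest rise was that of AU015836, which the RefSeq gene table lists as a long noncoding RNA. Its signals were 142, 134 and 182 in the Foxd3 arrays and 1529, 1320 and 1903 in the Foxd3+CA-NFATc3 arrays (log2 difference 3.12 ± 0.17 SE, adjusted p = 9.19e-08 by limma). It also rose from 209, 279 and 282 in the vector arrays to 3652, 4147 and 5816 in the CA-NFATc3 arrays. The rise on Foxd3 was thus present in every array, and the level reached lay below that with CA-NFATc3 alone. The test of the difference between the 2 rises, the interaction, did not pass (−0.85, adjusted p = 0.16).

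The second largest rise was that of Rgs5, a regulator that shortens G protein signalling and is well known from pericytes. It read 29.9, 43.3 and 25.6 in the Foxd3 arrays and 328, 307 and 360 in the Foxd3+CA-NFATc3 arrays, at least 5.03-fold higher (log2 difference 2.49 ± 0.2 SE, adjusted p = 1.13e-05 by limma). In the vector arrays it read 74.3, 39.2 and 37.6 and in the CA-NFATc3 arrays 79.6, 73 and 54.9. These latter groups overlapped (log2 difference 0.32, adjusted p = 0.501), and the interaction was 2.18 (adjusted p = 0.00104). Rgs5 was the only gene of the 38 with a larger difference on Foxd3 than on vector by that test, and it kept both calls in all alternatives run. Its 3 other probe sets were too dim to be tested and had higher means with CA-NFATc3 added.

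Promoter sequences of the largest rises are shown here because the plasmid product is a DNA-binding factor. They are the 250 bases upstream of the most upstream RefSeq start, from the RefSeq promoter table (GRCm38.p6), for the 3 largest rises with an entry, 5′ to 3′ on the gene's strand. Capitals mark letters that match a searched motif: TGGAAA (the NFAT core), TGANTCA (AP-1), GGAATG (TEAD) or TGTTTAC (forkhead), each on both strands.
Rgs5 (chr1:169655251-169655500, plus strand): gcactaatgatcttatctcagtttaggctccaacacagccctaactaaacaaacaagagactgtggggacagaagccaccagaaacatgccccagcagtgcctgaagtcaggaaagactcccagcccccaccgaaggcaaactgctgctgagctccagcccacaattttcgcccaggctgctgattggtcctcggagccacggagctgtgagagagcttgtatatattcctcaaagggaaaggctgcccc
Pmp22 (chr11:63128732-63128981, plus strand): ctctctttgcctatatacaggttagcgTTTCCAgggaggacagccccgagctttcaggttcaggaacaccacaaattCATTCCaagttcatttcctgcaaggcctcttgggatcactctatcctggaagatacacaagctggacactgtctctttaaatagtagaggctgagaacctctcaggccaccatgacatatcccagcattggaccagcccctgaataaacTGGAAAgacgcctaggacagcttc
Col1a2 (chr6:4505368-4505617, plus strand): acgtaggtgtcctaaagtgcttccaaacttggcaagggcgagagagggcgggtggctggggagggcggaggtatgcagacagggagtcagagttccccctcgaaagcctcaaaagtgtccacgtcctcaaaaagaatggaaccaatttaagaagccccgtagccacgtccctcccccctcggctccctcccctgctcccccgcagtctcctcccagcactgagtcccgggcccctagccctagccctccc
The Pmp22 window held the NFAT core at 223 and 24 bases before the start and the TEAD letters at 173, and Pmp22 has 4 windows in the table, of which the most upstream is shown. The Rgs5 and Col1a2 windows held none of the 4 motifs.

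Among the risen genes, 2 windows held both the NFAT core and the AP-1 letters. These were Capn6 and Cxcl10, chosen for this after the matches were seen.
Capn6 (chrX:143827413-143827662, minus strand): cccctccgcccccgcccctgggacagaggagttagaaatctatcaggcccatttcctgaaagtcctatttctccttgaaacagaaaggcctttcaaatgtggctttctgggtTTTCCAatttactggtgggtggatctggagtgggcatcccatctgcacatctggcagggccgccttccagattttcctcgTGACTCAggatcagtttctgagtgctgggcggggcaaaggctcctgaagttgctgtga
Cxcl10 (chr5:92348890-92349139, minus strand): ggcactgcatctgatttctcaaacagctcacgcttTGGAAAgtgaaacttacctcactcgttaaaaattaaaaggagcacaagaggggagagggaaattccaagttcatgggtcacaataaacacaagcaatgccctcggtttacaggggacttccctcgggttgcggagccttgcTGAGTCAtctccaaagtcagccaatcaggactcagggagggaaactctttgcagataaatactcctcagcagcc
In the Capn6 window the matches lie 138 and 58 bases before the start, and in the Cxcl10 window 215 and 74 bases before it. In neither window do the NFAT and AP-1 letters lie side by side. Over the 37 risen genes, 27 had a window. The NFAT core was in 10 of these 27 (37.0%), against 1333 of 9412 tested genes with a window (14.2%). The AP-1 letters were in 4 (14.8%, against 3.82%), the TEAD letters in 4 (14.8%, against 10.5%) and the forkhead letters in 1 (3.70%, against 2.14%). Among the genes that rose with CA-NFATc3 on vector, the NFAT core was in 70 of 421 windows (16.6%), and among those with a smaller rise on Foxd3 by the interaction test in 4 of 68 (5.88%). Median GC content was 58.4% in the windows of the risen genes and 60.4% in those of all tested genes. In the Apobec2 window the matches to the NFAT core and the TEAD letters overlap. These are counts of letters in 1 window per gene, not of binding sites.

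The fibroblast and mesenchymal matrix list had the highest share of calls among the 30 lists. Of its 11 tested genes, 3 rose, 0 fell and 8 did not pass (27.3% called, against 0.327% of all genes). The list median was 0.21, against 0.01. The 3 risen genes all encode chains of fibrillar collagens. Of 19 measured members, only 11 were bright enough to be tested. Col5a2 and Col3a1 were bright enough only in arrays that received CA-NFATc3, so their place among the tested genes is not independent of their rise. The lists were also chosen with earlier results of these data known. The share of 27.3% is therefore given as a description. Col5a2 read 19.07, 65 and 51.4 in the Foxd3 arrays and 315, 340 and 480 with CA-NFATc3 added, at least 5.65-fold higher (adjusted p = 8.64e-05 by limma). Col1a2 read 83.4, 77.9 and 53.8 against 283, 285 and 391 (log2 difference 1.76 ± 0.26 SE, adjusted p = 0.00364 by limma). Col3a1 read 17.6, 13.7 and 36 against 145, 101 and 124, at least 1.85-fold higher (adjusted p = 0.00334 by limma). Every array of the Foxd3+CA-NFATc3 group was thus above every Foxd3 array for each chain, and a second tested probe set of Col5a2 and of Col1a2 also passed over all probe sets (adjusted p = 0.0165 and 0.0107). Col1a2 and Col3a1 also belong to the fibroblast markers summed above.

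The 3 chains differed in what they did on vector. Col5a2 and Col3a1 rose there too, by 2.58 and 2.32 on the log2 scale, whereas Col1a2 had 36, 3.34 and 42.4 in the vector arrays and 40.2, 52.9 and 61.6 in the CA-NFATc3 arrays (log2 difference 0.56, adjusted p = 0.291). The interaction for Col1a2 was 1.20 with adjusted p = 0.207, so a difference between the backgrounds was not shown. Col1a2 also reached the filter on dim genes only with the help of the Foxd3+CA-NFATc3 arrays. Its call was lost with an offset of 1 in place of 32 (adjusted p = 0.346). Other members with no call were Fn1, the adhesive glycoprotein fibronectin, at 0.15, Pdgfrb, the receptor for platelet-derived growth factor BB, at 0.36, and Col5a1 at −0.09.

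Of 19 tested basement membrane genes, 1 rose, 0 fell and 18 did not pass (5.26% called, against 0.327% of all genes). All 19 differences were above 0, against 54.1% of all genes, and their median was 0.13. Serpinh1, the collagen chaperone Hsp47 of the endoplasmic reticulum, read 420, 414 and 409 in the Foxd3 arrays and 602, 603 and 716 with CA-NFATc3 added (log2 difference 0.59 ± 0.12 SE, adjusted p = 0.0388 by limma). Its call was lost without any 1 of these 6 arrays and without vector replicates 2 or 3 (adjusted p up to 0.255). The type IV collagen chain Col4a1 read 518, 477 and 605 against 788, 788 and 732, groups that did not overlap (log2 difference 0.51 ± 0.13 SE, adjusted p = 0.211). The versican gene Vcan, a large chondroitin sulphate proteoglycan in none of the lists, rose from 939, 941 and 851 to 1652, 1684 and 1884 (log2 difference 0.91 ± 0.1 SE, adjusted p = 0.000164 by limma). On vector its difference was 0.87, close to that on Foxd3 (interaction 0.04, adjusted p = 0.983).

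Of 21 tested genes of BMP, TGF-beta and activin signalling, 2 rose, 0 fell and 19 did not pass. That is 9.52% called, against 0.327% of all genes, and the median was 0.01. Both that rose encode secreted ligands. Other tested ligand genes did not pass, with Bmp7 at 0.02, Nodal at 0.01, Bmp8b at −0.10, Inhbb at −0.14 and Bmp4 at −0.20. Bmp2, a bone morphogenetic protein ligand, read 52.7, 36.5 and 40.5 in the Foxd3 arrays and 314, 391 and 275 with CA-NFATc3 added, at least 4.91-fold higher (log2 difference 2.25 ± 0.2 SE, adjusted p = 2.41e-05 by limma). On vector it went from 24.7, 22.3 and 19.4 to 87.2, 146 and 83.2. The highest Bmp2 signals of the 4 groups were therefore those of the Foxd3+CA-NFATc3 arrays, while the interaction of 0.93 did not pass (adjusted p = 0.21).

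Tgfb2, the ligand TGF-beta 2, is also in the YAP and SRF target list. There 1 of 16 tested genes was called (6.25%, against 0.327% of all genes). Tgfb2 read 35.5, 48.8 and 77.8 against 154, 130 and 150, at least 2.07-fold higher (adjusted p = 0.0294 by limma). The call was lost without Foxd3 replicates 1 or 2 or any Foxd3+CA-NFATc3 array (adjusted p up to 0.173), and with the mean of its probe sets (0.39). Listed target genes of these pathways did not pass. Id1, Id2 and Id3, immediate targets of BMP signalling, had differences of −0.02 ± 0.24, 0.10 ± 0.22 and 0.31 ± 0.28 SE. The feedback inhibitors Smad6 and Smad7 had 0.57 ± 0.16 and 0.13 ± 0.08 SE. For Smad6 the groups did not overlap (adjusted p = 0.3 by limma). Receptor genes did not pass either, with Tgfbr2 at 0.66 and Bmpr1a at 0.01.

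Of 14 tested imprinted genes, 2 rose, 0 fell and 12 did not pass (14.3% called, against 0.327% of all genes). Their median was 0.05. Igf2, the fetal insulin-like growth factor, read 74.9, 97.2 and 143 in the Foxd3 arrays and 372, 230 and 271 with CA-NFATc3 added (log2 difference 1.24 ± 0.23 SE, adjusted p = 0.0283 by limma). Its level with CA-NFATc3 alone was 908, 845 and 1270, above every array of the other 3 groups, and the interaction was −1.92 (adjusted p = 0.00748). The Igf2 call on Foxd3 was lost without replicates 1 or 2 of Foxd3 or replicates 1 or 3 of Foxd3+CA-NFATc3 (adjusted p up to 0.16). The paternally expressed zinc finger gene Peg3 rose less, from 1814, 1667 and 1967 to 2358, 2325 and 2724 (log2 difference 0.44 ± 0.08 SE, adjusted p = 0.035 by limma). That call was lost without vector replicate 3, Foxd3 replicates 1 or 2, CA-NFATc3 replicate 3 or any Foxd3+CA-NFATc3 array (adjusted p up to 0.246).

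Calcium-binding and lectin genes gave 2 rises among 17 tested annexins, S100 proteins and galectins, with none lower, 15 not passing and a median of 0.25. Thus 11.8% were called, against 0.327% of all genes. Lgals1, the secreted sugar-binding protein galectin-1, read 3520, 3735 and 3920 in the Foxd3 arrays and 7646, 6761 and 8586 with CA-NFATc3 added (log2 difference 1.03 ± 0.11 SE, adjusted p = 0.000188 by limma), and its second probe set also passed (adjusted p = 0.000314). S100g, the calcium-binding protein calbindin-D9k, rose from 9.12, 4.09 and 3.72 to 33.3, 53.6 and 71.3. Both means are below 65.8, so no fold is given (adjusted p = 0.0131). S100g reached 65.8 only in arrays that received CA-NFATc3, so its place among the tested genes is not independent of its rise. Its call was lost without replicates 2 or 3 of either group (adjusted p up to 0.0933) and with an offset of 64. Anxa1, Anxa2 and Anxa5, annexins that bind membranes in the presence of calcium, had differences of 0.78, 0.76 and 0.62 without a call, and each passed only with the replicate block (adjusted p = 0.000969, 0.0112 and 0.0276).

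Cxcl10, a chemokine for T cells, was the only call among 7 tested chemokines and cytokines, whose median was −0.06, against 0.327% of all genes called. It read 29.6, 41.6 and 27.4 against 126, 176 and 94.5, at least 1.94-fold higher (adjusted p = 0.0157 by limma). The vector and CA-NFATc3 arrays overlapped for Cxcl10, with a log2 difference of 0.15. Cxcl10 passed the filter on dim genes only through the 3 Foxd3+CA-NFATc3 arrays, so its place among the tested genes is not independent of its difference. The call was lost without Foxd3 replicates 1 or 3 (adjusted p up to 0.0879) and with an offset of 1. None of 16 tested interferon response genes passed, and their median was 0.09.

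The remaining large rises fell outside the lists. Pmp22, a membrane protein of peripheral myelin that is also made outside nerve, read 74.5, 89.1 and 74.2 in the Foxd3 arrays and 557, 390 and 481 with CA-NFATc3 added (log2 difference 2.18 ± 0.19 SE, adjusted p = 1.89e-05 by limma). Its rise on vector was 2.33, to a like level. Apobec2, a muscle-enriched member of the APOBEC deaminase family, rose from 353, 267 and 459 to 962, 888 and 893, with log2 differences of 1.30 on Foxd3 and 1.27 on vector. For both genes every array with CA-NFATc3 was above every array without it.

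Capn6, a calpain family member without protease activity, read 31.6, 52.7 and 4.1 against 157, 208 and 134, at least 2.48-fold higher. Nptx1, a secreted neuronal pentraxin, read 49.8, 48.1 and 66.8 against 191, 193 and 310, at least 3.41-fold higher. Septin4, a septin of the cytoskeleton, read 25.3, 26.7 and 46.4 against 104, 230 and 144, at least 2.30-fold higher. The Septin4 call was lost without Foxd3 replicates 1 or 2 or Foxd3+CA-NFATc3 replicate 2 (adjusted p up to 0.0646), whereas Capn6 and Nptx1 kept theirs without any 1 array.

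Gab2, a docking protein of receptor tyrosine kinases, read 27.7, 51.8 and 36.7 against 189, 136 and 148, at least 2.37-fold higher (log2 difference 1.43 ± 0.2 SE, adjusted p = 0.00331 by limma). Its log2 difference on vector was 1.44. Tcim, a small nuclear protein linked to Wnt signalling, read 50.5, 64.6 and 44 against 192, 163 and 160, at least 2.60-fold higher. The genes that follow lie outside the rule for naming and are given so that all 38 are accounted for. Inpp5a, which removes a phosphate from the calcium-releasing messenger inositol trisphosphate, had a log2 difference of 0.65. Gem, a small GTPase that dampens voltage-gated calcium channels, had 1.23 and was at least 1.18-fold higher. Grb14, an adaptor that binds the insulin receptor, had 0.75. Elk3, an ETS factor that partners with SRF, had 0.92, and the transcription cofactor Lbh had 1.15 and was at least 1.99-fold higher. The calls of Inpp5a, Gem, Grb14 and Lbh were lost without at least 1 of the 6 arrays (adjusted p up to 0.16 for Lbh), and Elk3 kept its call without any 1 of them.

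Of the others, Ap1s2, a subunit of the clathrin adaptor complex, rose from 587, 668 and 639 to 1390, 1339 and 1483 (log2 difference 1.12 ± 0.11 SE, adjusted p = 0.000104 by limma). Atp1b1, the beta subunit of the sodium pump, rose from 2663, 3154 and 2677 to 4631, 4534 and 4447 (log2 difference 0.68 ± 0.1 SE, adjusted p = 0.00331 by limma). Igfbp7, a secreted binding protein, had 1.18, and Pdzrn3, a ubiquitin ligase, had 1.09. Dmkn, the secreted epidermal protein dermokine, had 1.06 and was at least 1.68-fold higher. Moxd1 had 0.99, Phlda1 0.83, Ccdc68 0.77 and 1700042O10Rik 0.74 on the log2 scale. Of these, Ap1s2, Atp1b1 and Pdzrn3 kept their calls without any 1 array. The others lost theirs without at least 1 of the 6 arrays, Moxd1 without Foxd3+CA-NFATc3 replicate 2, and Ccdc68 also without vector replicate 3 (adjusted p up to 0.219 for Ccdc68).

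For 2 genes, other tested probe sets did not show the difference. Irak1, a kinase downstream of interleukin-1 and Toll-like receptors, had 0.98 by its brightest probe set, but its 3 other probe sets gave −0.01 to 0.15. Obsl1, a cytoskeletal adaptor, had 0.56, with 2 of its 4 other tested probe sets lower. The Obsl1 call was lost without any 1 of the 6 arrays and without CA-NFATc3 replicates 2 or 3 (adjusted p up to 0.205). Over all called genes, 28 other probe sets of 16 genes could be tested, 25 of them in the same direction and 8 passing over 23595 probe sets. Some others were too dim to be tested, and those of Gab2 and Apobec2 had lower means with CA-NFATc3 added. Over all probe sets 53 passed, 52 of them higher, and 4 of the 53 carry no single gene symbol.

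The only gene that fell was Tcf7l1, a TCF factor that represses Wnt targets and restrains the pluripotency network in embryonic stem cells. It read 2010, 2071 and 2612 in the Foxd3 arrays and 1550, 1603 and 1418 with CA-NFATc3 added (log2 difference −0.53 ± 0.1 SE, adjusted p = 0.0294 by limma). It fell likewise on vector, from 1560, 1663 and 1702 to 1073, 1213 and 1016, and the interaction was 0.03. It was the only call among 15 tested Wnt signalling genes (6.67%, against 0.327% of all genes called). The call was lost without Foxd3 replicates 2 or 3 or any Foxd3+CA-NFATc3 array (adjusted p up to 0.206). The Wnt target Axin2 had a difference of 0.03 without a call.

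The plot of the 38 genes places each difference on Foxd3 beside the one on vector.

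**Figure D2:**
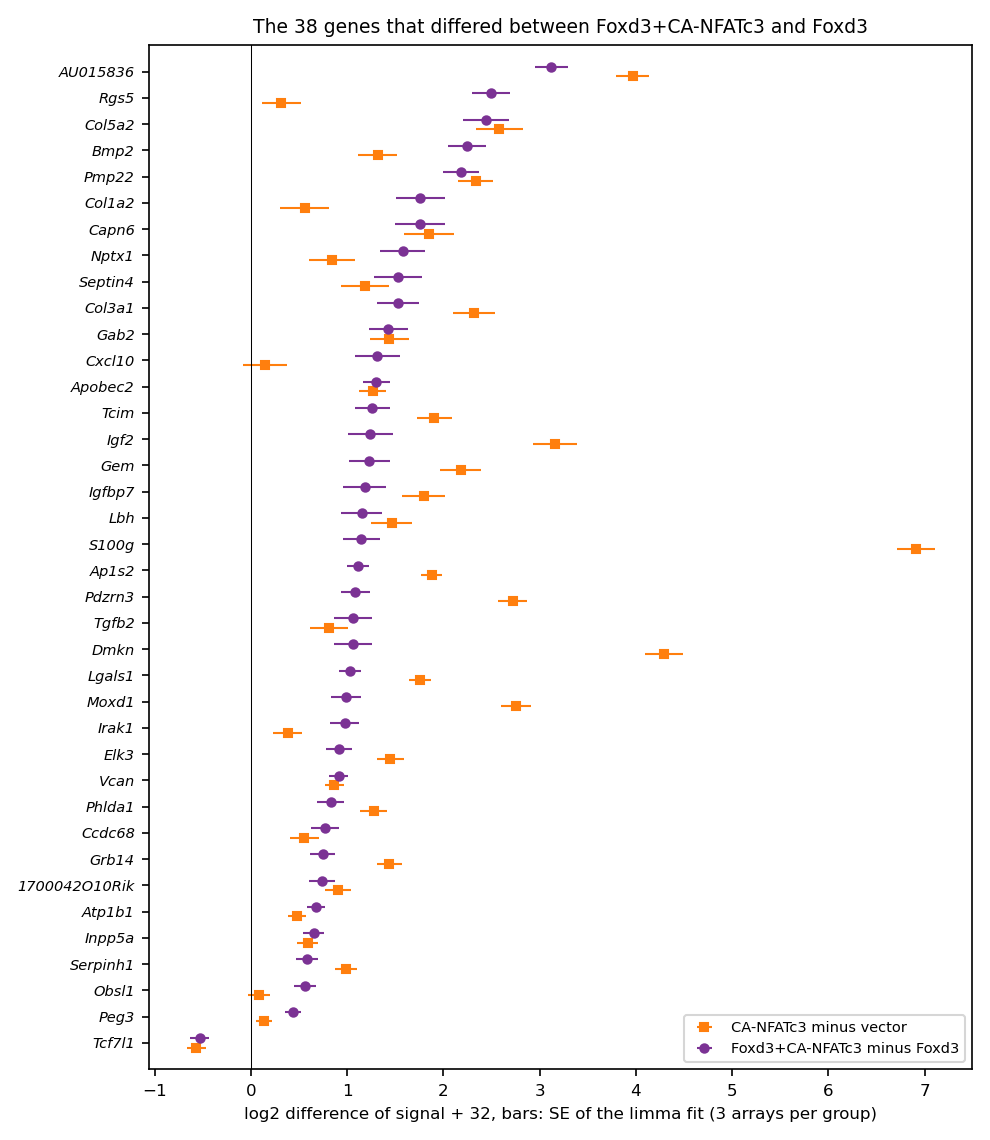
Log2 difference of signal plus 32 for the 38 genes that differed between Foxd3+CA-NFATc3 and Foxd3 (circles), with the difference between CA-NFATc3 and vector for the same genes (squares). Bars are standard errors from limma (3 arrays in each group). S100g, Dmkn and Igf2 rose more on vector, Rgs5 rose more on Foxd3, and Pmp22, Gab2, Vcan and Apobec2 have nearly the same difference in both.

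Pluripotency genes did not pass the test. Of 32 tested, 0 were called, and the differences ran from −0.18 to 0.24 with a median of −0.03. Pou5f1 had −0.09 ± 0.08 SE (adjusted p = 0.878 by limma) and Sox2 had 0.04 ± 0.06 SE (adjusted p = 0.928 by limma). Nanog read 14978, 12321 and 12707 in the Foxd3 arrays and 11770, 12021 and 12304 with CA-NFATc3 added (adjusted p = 0.812). On vector, 5 of the 32 fell with CA-NFATc3: Dppa2, Klf2, Nr0b1, Prdm14 and Tet2. On Foxd3 these 5 had differences of −0.18, −0.12, −0.11, −0.12 and 0.08, with no call. None of them passed the interaction test, so a difference between the backgrounds was not shown. None of 25 tested cell cycle genes passed, with a median of −0.03, and none of 9 housekeeping genes, which ran from −0.03 to 0.06.

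The NFAT pathway itself did not pass in the main fit either. Of 20 tested genes of the calcineurin and NFAT pathway, 0 were called, against 0.327% of all genes. The differences of 16 of the 20 were above 0, against 54.1% of all genes, and the median was 0.07. Rcan1, a calcineurin inhibitor and a classic NFAT target, read 1006, 1112 and 1025 in the Foxd3 arrays and 1432, 1384 and 1508 with CA-NFATc3 added. The groups did not overlap, but the difference of 0.45 ± 0.11 SE did not pass (adjusted p = 0.158 by limma), and it passed only with the replicate block (adjusted p = 0.0365). On vector Rcan1 rose from 1192, 1137 and 1258 to 3235, 3274 and 4597. The interaction was −1.14 (adjusted p = 0.0013), so the rise of Rcan1 was smaller in the Foxd3-labelled cells.

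Other members of the pathway had small differences. The catalytic calcineurin subunit Ppp3ca had 0.29, Rcan2 had 0.34, Nfatc4 had 0.24, Nfatc2 had −0.02 and Nfatc1 had −0.19, all without a call. The kinase gene Src had −0.01. Of 13 tested calcium and NFAT response genes, 0 passed on Foxd3 and 7 rose on vector, with medians of 0.12 and 0.57. Egr1 and Egr2, immediate early transcription factors, had 0.15 and 0.12 on Foxd3 and rose by 1.68 and 1.82 on vector. Ptgs2, the inducible cyclooxygenase, read 38.5, 39.7 and 54.3 in the Foxd3 arrays and 60.9, 54.5 and 119 with CA-NFATc3 added. In the CA-NFATc3 arrays it read 474, 456 and 1215, and the interaction was −2.84 (adjusted p = 0.00272). Ier3 had 1.17 on Foxd3 and passed only with the replicate block (adjusted p = 0.000793).

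Setting the 2 backgrounds side by side, CA-NFATc3 changed far more genes on vector. There 680 genes passed (5.86%), 536 of them higher (4.62%) and 144 lower. Both comparisons came from 1 fit and share no array. Whether cells of the 2 backgrounds held a like amount of CA-NFATc3 was not tested. Of the 38 genes called on Foxd3, 32 (84.2%) were also called on vector in the same direction, 31 higher and 1 lower, which is 4.71% of the 680. The 6 called on Foxd3 only were Rgs5, Col1a2, Cxcl10, Irak1, Obsl1 and Peg3, and of these Rgs5 alone passed the interaction test. The 536 genes that rose on vector had a median of 0.83 there and 0.21 on Foxd3. On Foxd3, 455 of the 536 (84.9%) were above 0, against 54.1% of all genes, and 523 had a smaller difference than on vector. These genes were chosen by their rise on vector, so their medians are given as a description. The 144 that fell had medians of −0.47 and −0.07. Across all 11609 genes, which are not independent replicates, the 2 sets of differences had Pearson r = 0.366 and Spearman rho = 0.245. With the replicate block the vector comparison called 1104 genes, and without CA-NFATc3 replicate 3 it called 349.

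**Figure D3:**
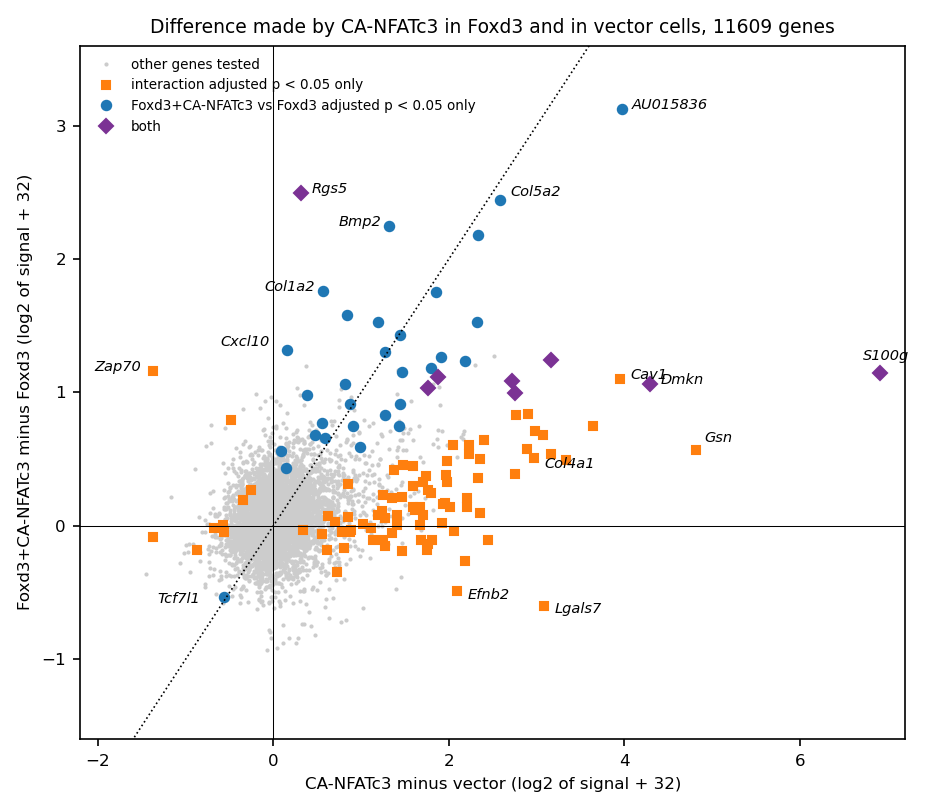
Each of 11609 genes by its log2 difference between CA-NFATc3 and vector (x axis) and between Foxd3+CA-NFATc3 and Foxd3 (y axis). The dotted line marks equal differences. Genes with a passing interaction lie mostly to the right and below the line, S100g and Gsn farthest. Col5a2 lies near the line and AU015836 below it without a passing interaction, while Rgs5 and Zap70 lie above it.

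The interaction term tested gene by gene whether the difference made by CA-NFATc3 was the same on Foxd3 as on vector. It passed for 94 genes (0.810%), of which 84 were negative and 10 positive. With the replicate block it passed for 245, 184 negative and 61 positive, and without Foxd3 replicate 3 or CA-NFATc3 replicate 3 for 60 and 48. All 84 negative genes rose on vector, with a median of 1.76, and on Foxd3 their median was 0.17, with 61 above 0, 23 below 0 and 7 called. In 81 of the 84 the Foxd3+CA-NFATc3 mean was below the CA-NFATc3 mean. In 76 of the 84 the Foxd3 level was nearer to the vector level than to the CA-NFATc3 level. The 84 were chosen by a negative interaction, which itself sets the difference on Foxd3 below that on vector. These values are therefore given as a description.

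The largest negative terms belonged to genes that were strongly raised by CA-NFATc3 alone. S100g read 1.57, 1.5 and 1.57 in the vector arrays and 3267, 3876 and 5046 in the CA-NFATc3 arrays, against at most 71.3 in the Foxd3+CA-NFATc3 arrays (interaction −5.76 ± 0.27 SE, adjusted p = 1.23e-08 by limma). Gsn, the actin-severing protein gelsolin, read 208, 178 and 193 in the Foxd3 arrays and 352, 276 and 278 with CA-NFATc3 added, without a call (adjusted p = 0.521). With CA-NFATc3 alone Gsn reached 4771, 6257 and 7076. In every CA-NFATc3 array both genes were above every array of the other groups by more than the spread between replicates.

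Cav1, the main protein of caveolae, read 30.2, 24.2 and 15.7 in the Foxd3 arrays and 81.6, 81.5 and 95.2 with CA-NFATc3 added. The adjusted p was 0.0531, and it passed with the replicate block (0.0307). With CA-NFATc3 alone Cav1 reached 715, 742 and 1380. Col4a1 reached 2358, 2340 and 3440 with CA-NFATc3 alone against 788, 788 and 732 with Foxd3 added (interaction −2.46, adjusted p = 3.48e-06). Dmkn read 941, 973 and 1545 with CA-NFATc3 alone and 131, 98.4 and 105 with both. Cyp26a1, which breaks down retinoic acid, read 483, 372 and 595 with CA-NFATc3 alone and 27.9, 51 and 22.3 with both.

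Efnb2 and Lefty1 show another pattern, in which every Foxd3 array was above every vector array. Efnb2, the membrane ligand ephrin-B2, read 86.5, 132 and 106 in the vector arrays, 1099, 986 and 1630 in the Foxd3 arrays, 479, 536 and 690 in the CA-NFATc3 arrays and 920, 619 and 1087 in the Foxd3+CA-NFATc3 arrays. The last group overlapped the Foxd3 arrays (log2 difference −0.49, adjusted p = 0.65). Lefty1, a secreted Nodal antagonist, read 7636, 5979 and 7524 in the Foxd3 arrays and 6171, 5588 and 6842 with CA-NFATc3 added, and it fell on vector (interaction 0.70, adjusted p = 0.0355). The Lefty1 interaction was lost without any 1 of 9 of the 12 arrays or with no filter, all 18 arrays or no variance trend. Hs6st2, a heparan sulphate sulfotransferase, read 769, 913 and 1103 in the Foxd3 arrays and 807, 873 and 904 with CA-NFATc3 added, far above the 54.2, 53.9 and 70.7 of the vector arrays.

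Zap70, a tyrosine kinase best known from T cells, had the largest positive term. It read 354, 339 and 228 in the vector arrays, 126, 131 and 51.7 in the CA-NFATc3 arrays, 94.1, 162 and 113 in the Foxd3 arrays and 364, 406 and 194 in the Foxd3+CA-NFATc3 arrays. All arrays labelled CA-NFATc3 or Foxd3 alone were below the vector arrays, and those labelled with both overlapped the vector arrays (interaction 2.53, adjusted p = 0.00421). Its difference of 1.16 on Foxd3 did not pass (adjusted p = 0.149) except with the replicate block (0.00644). Of the 10 positive genes, 8 fell on vector and 1, Rgs5, rose on Foxd3.

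Lineage marker lists are given by their counts in both comparisons, beside 4.62% of all genes higher on vector and 0.319% on Foxd3. Of 24 tested trophectoderm and trophoblast genes, 10 rose on vector and 0 passed on Foxd3, with medians of 0.40 and 0.11 and 3 negative interactions. Eomes, a T-box factor of trophoblast stem cells, read 132, 149 and 99 in the Foxd3 arrays and 200, 205 and 125 with CA-NFATc3 added, and 467, 507 and 587 with CA-NFATc3 alone (interaction −1.59, adjusted p = 0.0086). The trophectoderm factors Cdx2 and Gata3 were too dim to be tested. Krt19, a keratin, had 1.20 on Foxd3 without a call (adjusted p = 0.0811) and passed with the replicate block (0.0461).

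Of 20 tested primitive and visceral endoderm genes, 9 rose on vector and 0 passed on Foxd3, with medians of 0.53 and 0.13 and 5 negative interactions. Sox17, an endoderm factor, read 27.7, 29.1 and 20.6 in the Foxd3 arrays and 94, 50.4 and 46.2 with CA-NFATc3 added (adjusted p = 0.569). Gata6 had a difference of 0.03, and Gata4 was too dim to be tested. Of 21 epithelial keratin and junction genes, 6 rose on vector and 0 passed on Foxd3, and of 12 matrix proteases and inhibitors also 6 and 0. A list with a call on vector and none on Foxd3 is not thereby shown to differ between them. Among 30 lists in all, 8 held a call on Foxd3 and 22 held none, and 12 of the 38 genes were in a list.

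**Figure D4:**
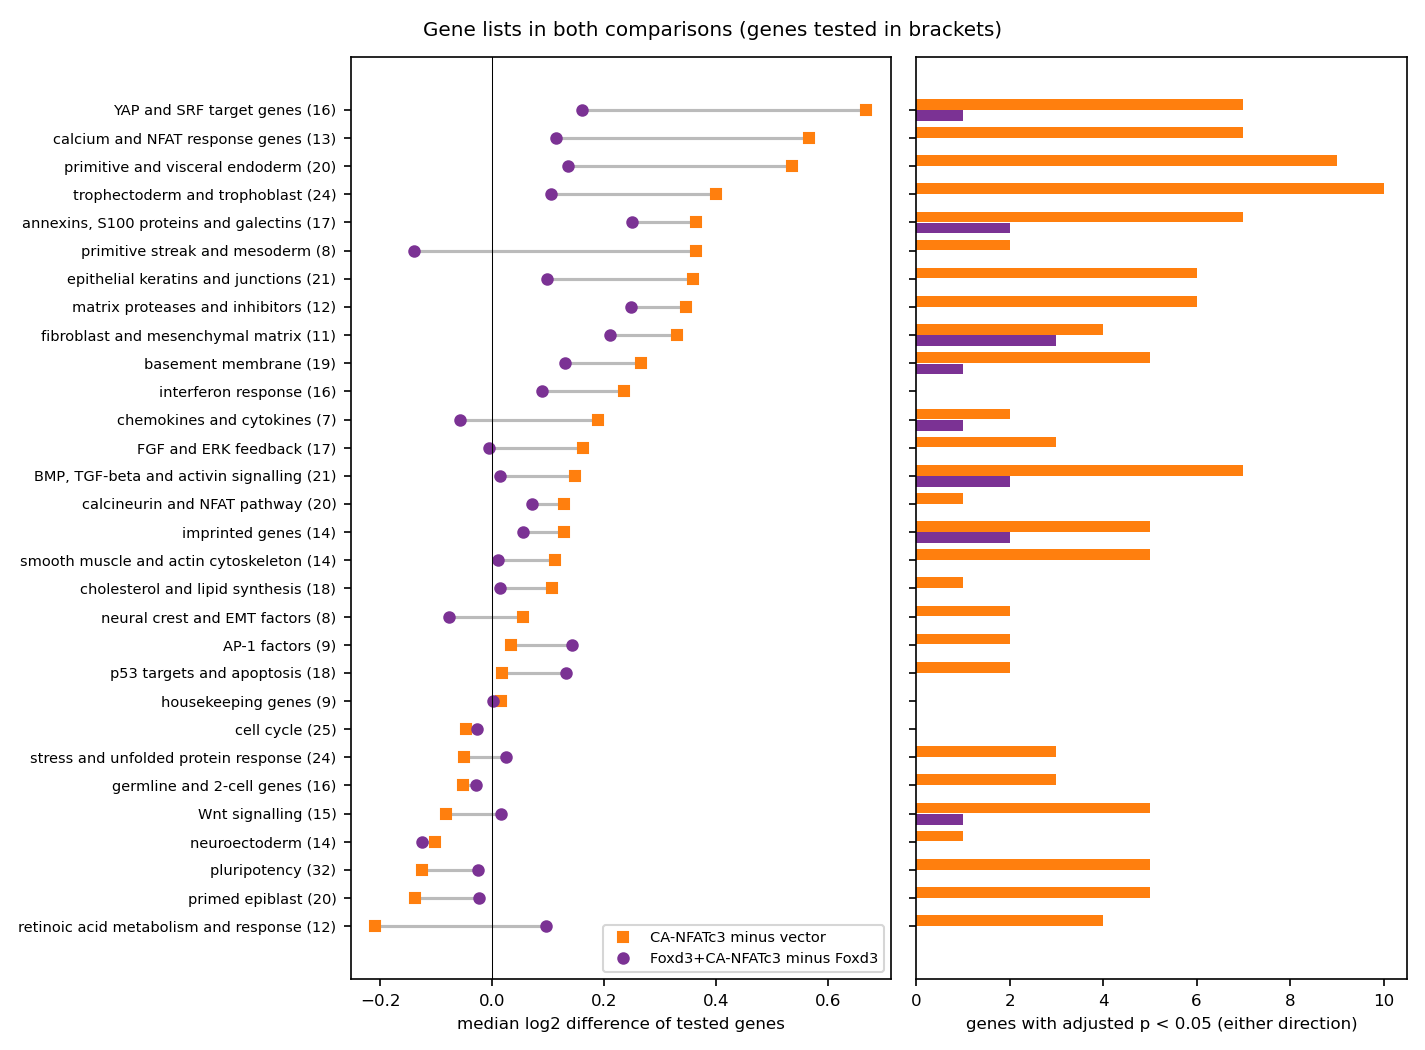
For 30 gene lists, the median log2 difference of the tested members (left) and the number of members with an adjusted p under 0.05 in either direction (right, bars from 0), for CA-NFATc3 minus vector (squares, upper bars) and Foxd3+CA-NFATc3 minus Foxd3 (circles, lower bars). The number of tested members stands in brackets. The trophectoderm list has 10 called genes on vector and 0 on Foxd3, while the fibroblast and mesenchymal matrix list has 4 and 3.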

How the data were processed

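RNA of CGR8 cells was hybridised to Affymetrix Mouse Genome 430 2.0 arrays, and the authors deposited MAS5 signal intensity values on a linear scale for 45101 probe sets, per the labels and the submitters' processing notes. In every array the trimmed mean was 500. Probe sets were named through the platform annotation: 34945 have 1 gene symbol, 932 several and 9160 none, and 64 are controls. One probe set was kept for each of 18193 genes, the one with the highest mean over all 18 arrays. The log2 of signal plus 32 was tested with limma 3.58.1 in R 4.3.3 (eBayes with a variance trend, Benjamini-Hochberg adjustment over all genes tested, called at 0.05) in 1 fit of the 12 transfected arrays. Genes had to reach 65.8, the median of all deposited values, in at least 3 of the 12. Bmp2, Capn6, Col3a1, Col5a2, Cxcl10, Dmkn, Gab2, Gem, S100g, Septin4 and Tcim reached it only in arrays that received CA-NFATc3. Col1a2, Lbh, Nptx1 and Tgfb2 passed this filter only with the help of such arrays. The place of these called genes among the tested genes is therefore not independent of their rise. The script was tested on simulated data.

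Same-numbered arrays of different groups deviated together (18 pairs, correlations 0.104 to 0.315, against −0.282 to 0.0133 for other numbers). By the data the numbers pair the samples, but the labels do not say what the numbers stand for. The main fit does not pair the arrays, so this shared variation stays in the spread that its p-values measure. The fit with this block is an alternative and called more genes in each comparison. Others were quantile normalization, offsets of 1 and 64, no filter, a filter on the mean, all 18 arrays, array weights, the mean of probe sets, no variance trend, the 2 groups alone and leaving out each array.

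Genes were named by rule: the 15 largest rises and falls, the 3 largest called changes in each list, the 8 largest interaction terms in each direction, and a fixed set of factors and targets. The comparison, the 30 lists and the named genes were chosen with earlier results of these data known. Of the list symbols, 30 had no match. Promoters came from the RefSeq table.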

Additional observations from a re-analysis of the deposited data

Results flagged for a closer look

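The difference made by CA-NFATc3 differed between Foxd3-labelled and vector cells, by the interaction term of the limma fit, for 22 of the genes named by rule. Values are log2 differences on Foxd3 minus those on vector.

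For 14 of these genes the term was negative, and the rise on vector was larger. The largest were S100g at −5.76, Gsn at −4.26, the galectin gene Lgals7 at −3.69, Dmkn at −3.23, Cyp26a1 at −2.90, Cav1 at −2.85 and Ptgs2 at −2.84. They were followed by Cited1, a transcriptional co-regulator, at −2.62, Efnb2 at −2.58, Col4a1 at −2.46, Igf2 at −1.92, Eomes at −1.59, Rcan1 at −1.14 and Lgals1 at −0.73. Efnb2 and Lgals7 had negative differences on Foxd3, of −0.49 and −0.60, neither with a call.

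For 8 genes the term was positive: Zap70 at 2.53, Rgs5 at 2.18, Stra8, a meiosis factor induced by retinoic acid, at 1.29, AW551984 at 1.28, Lefty1 at 0.70, Adgre5 at 0.65, Rnf213 at 0.57 and Galnt2 at 0.54. Of these, Rgs5 rose on Foxd3, and Zap70, Stra8, Lefty1, Adgre5, Rnf213 and Galnt2 fell on vector. Stra8 read 277, 328 and 331 in the Foxd3 arrays and 259, 286 and 333 with CA-NFATc3 added, but 110, 74.6 and 124 in the CA-NFATc3 arrays. AW551984 read 139, 129 and 102 in the Foxd3 arrays and 227, 241 and 241 with CA-NFATc3 added (adjusted p = 0.0878 by limma). The interaction calls of Adgre5, AW551984, Galnt2, Lefty1, Lgals1, Rnf213 and Stra8 were each lost in at least 4 alternatives that left out 1 array, and their highest adjusted p over all alternatives was 0.0994, 0.0731, 0.354, 0.143, 0.188, 0.597 and 0.0694.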

How the results depend on the processing

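The count of genes differing between Foxd3+CA-NFATc3 and Foxd3, 38 as reported, was 96 with the replicate block, 63 with all 18 arrays and 25 with the mean of probe sets, and 22 to 44 when 1 array was left out. The other alternatives gave 27 to 49. The interaction count, 94 as reported, was 245 with the block, 161 with all 18 arrays and 172 with array weights, and 48 to 104 when 1 array was left out. With the block 24.9% of its calls were positive, against 10.6%. The count on vector, 680, was 1104 with the block and 349 to 676 when 1 array was left out. No named result changed direction when called. The block ended no call of the 38 and added 58. Of the 38 genes, 11 kept their call in all alternatives in which they were tested: Ap1s2, AU015836, Bmp2, Col3a1, Col5a2, Gab2, Lgals1, Nptx1, Pmp22, Rgs5 and Tcim. The other 27 lost it in at least 1, and 19 kept it without any 1 array. The mean of probe sets, which averages in dim probe sets, ended the calls of Apobec2, Atp1b1, Capn6, Elk3, Pdzrn3 and Vcan, among others. The share of genes called on Foxd3 that were also called on vector was 75% to 89.2%. Of the interaction terms named, 12 kept their call throughout, Cited1 and Cyp26a1 lost it with an offset of 1, and Igf2 lost it with the mean of probe sets (adjusted p = 0.0553). The number of arrays, 3 per group, limits the precision, and the fold of a gene below 65.8 in 1 group depends on the offset.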

Other observations

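With the replicate block, 58 further genes differed between Foxd3+CA-NFATc3 and Foxd3, 51 higher and 7 lower, and 32 of the 51 had also risen on vector. The genes named here were chosen after their values were seen, and p-values are from the blocked limma fit. They are examples, not a group that was tested. Fbn2, the microfibril protein fibrillin-2, was higher by 0.90 (adjusted p = 0.0166), P3h2, a collagen prolyl hydroxylase, by 1.27 (0.0166), the integrin chain Itga8 by 0.72 (0.0106) and the proteoglycan Sdc4 by 0.53 (0.0137). Irs1, the insulin receptor substrate, was higher by 0.77 (0.0152), the liver-type glycogen phosphorylase Pygl by 0.74 (0.0146) and glycogenin, Gyg, by 0.40 (0.0122).

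The 7 genes that were lower only with the block had small differences. Rragd, a GTPase of the amino acid sensing pathway, was at −0.58 (adjusted p = 0.00154), the amino acid transporter chain Slc3a2 at −0.36 (0.0166), the metallothionein Mt1 at −0.33 (0.0137) and creatine kinase B, Ckb, at −0.26 (0.0463). Without the block none of these passed, and Rragd had an adjusted p of 0.109.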
